A study of Homo sapiens with 36 samples.

Results

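Trefoil factors and AGR2 are partners in mucosal secretion. TFF1, TFF2 and TFF3 are small secreted peptides that mucus-producing epithelia release onto their surface, where they take part in repair of the epithelial layer. AGR2 is a protein disulfide isomerase of the endoplasmic reticulum that helps secreted proteins such as mucins to fold. TFF1, TFF3 and AGR2 are known in breast and prostate cancer as genes that respond to steroid hormones.

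The 3 genes described here, TFF1, TFF3 and AGR2, are taken from 20046 genes read on Illumina HT-12 expression arrays. They were picked as a group by name when results of these arrays were already known, among them the level of TFF3 after GABPA knockdown in LNCaP cells. Each gene was read from the probe annotated to it with the highest mean log2 intensity. TFF3 and TFF1 had 1 probe each and AGR2 had a second, dimmer probe.

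The arrays covered 32 samples in 16 groups of 2, from 2 human prostate cancer lines. c42b is a castration-resistant line derived from LNCaP, and LNCaP is androgen-dependent. In each line, cells carried pLVX with GABPA (overexpression, OE), empty pLVX (EV), a hairpin labelled shGA that the study directs against GABPA (knockdown, KD), or a non-targeting control (NT). GABPA is the DNA-binding subunit of GABP, an ETS-family transcription factor. All cells were kept for 48 h in serum stripped with charcoal, which removes steroids, and were then given the synthetic androgen R1881 at 1 nM or ethanol (vehicle). EV and NT cells are both controls, but their labels name different constructs. The study's methods assign pLVX to the knockdown and pSicoR to the overexpression, the reverse of the labels, which are followed here. The study describes the overexpression as doxycycline-inducible, whereas the labels name no doxycycline. The study states that the RNA came from biological triplicates, whereas the labels give 2 samples per group and mark repeat arrays apart. The labels themselves do not say which samples came from separate cultures. The spread behind each p-value is therefore that between these samples and may be partly technical.

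Levels are given as log2 of the quantile-normalized intensity, and differences as log2 differences with their standard error (SE). The 95th percentile of olfactory receptor probes, whose genes are largely silent in other tissues, was taken as background (7.80 log2), and 48.2% of the genes had a mean above it. A difference was called at an adjusted p under 0.05 in limma, with Benjamini-Hochberg adjustment over all probes. The GABPA probe read 7.50 ± 0.24 in c42b KD cells and 7.96 ± 0.14 in c42b NT cells (SD, n = 4 each), a difference of -0.46 log2 that passed the test (limma, adjusted p = 0.0215). None of these KD samples was above background, so that the level was at least 1.11-fold lower in KD cells. In LNCaP it read 7.70 ± 0.087 in KD cells and 8.08 ± 0.18 in NT cells, which missed the threshold (limma, adjusted p = 0.101). It was not higher in the OE than in the EV cells of either line. The differences were 0.031 log2 in c42b and -0.051 log2 in LNCaP (limma, adjusted p = 0.978 and 0.956). OE is therefore used as a label here. The study reports that it checked both overexpression and knockdown by western blot and PCR. Whether this probe reads the transcript of the vector was not tested. A second, dimmer GABPA probe was above background in 0 of 32 samples. All 8 measured markers of prostate luminal epithelium had means above background (9.33 to 12.4 log2), whereas neither of the 2 measured basal markers did. Of 5 markers of goblet cells, the mucus-secreting cells of the gut, MUC2 (7.84 log2) and FCGBP (7.88 log2) were just above background and the other 3 below it. As these are bulk samples, fewer cells of a type and less RNA per cell cannot be told apart.

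The promoter of AGR2 is shown because ETS factors such as GABP bind DNA at a core of the letters GGAA, and AGR2 was among the genes that differed with the GABPA hairpin in c42b. The stretch holds the 250 bases before the RefSeq start of AGR2 (GRCh38.p14, chr7:16805000-16805249, minus strand), from 5′ to 3′, with each GGAA in capitals. It is the only promoter of the 3 genes in the RefSeq table used.
AGR2: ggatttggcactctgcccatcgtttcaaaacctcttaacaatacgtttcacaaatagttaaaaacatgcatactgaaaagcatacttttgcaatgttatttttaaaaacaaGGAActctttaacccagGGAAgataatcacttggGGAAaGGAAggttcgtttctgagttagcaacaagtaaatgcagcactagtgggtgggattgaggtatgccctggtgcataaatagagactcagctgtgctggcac
The window held 4 matches to GGAA, at 139, 122, 105 and 100 bases before the start. All 4 were on the printed strand. Of 35116 promoter windows of the same length, 92.7% held GGAA on either strand and 34.3% held at least 4 matches, so that this count is common. The longer GABP consensus CCGGAAGT, which contains GGAA, had no match in the window on either strand and was in 3.42% of all windows. Nor was there a match to the androgen receptor half-site AGAACA (12.4% of all windows), to the forkhead site TGTTTAC (2.98%), to the TATA box TATAAA (10.7%) or to TGACGTG, an element of the unfolded protein response (1.68%). A missing match says only that these letters are not in this window. The study lists AGR2 as directly regulated by GABPA, from a binding site mapped near the gene and from changed expression. The span in which it looked for such sites was far wider than this window.

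TFF3, the trefoil factor typical of goblet cells, was the bright member. Its probe was above background in 32 of 32 samples, with a mean of 10.25 log2. The highest and the lowest sample differed by 2.43 log2, a range larger than that of 98.7% of the genes. The level went with line and vector far more than with androgen. The order of the 16 groups, each a mean of 2 samples, ran as follows. The 4 groups of c42b cells with pLVX (OE and EV) stood at the top, between 10.96 and 11.14 log2. The 4 LNCaP groups with pLVX came next, between 10.60 and 10.82, then the 2 LNCaP NT groups, 10.37 with R1881 and 10.29 with vehicle. A gap of 0.59 log2 followed. Below it lay the c42b KD groups (9.68 with R1881, 9.70 with vehicle), the c42b NT groups (9.34 with R1881, 9.54 with vehicle) and the LNCaP KD groups (9.03 with R1881, 9.05 with vehicle). Within these blocks most neighbours differed by less than the pooled SD within groups of 0.13 log2.

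**Figure D1:**
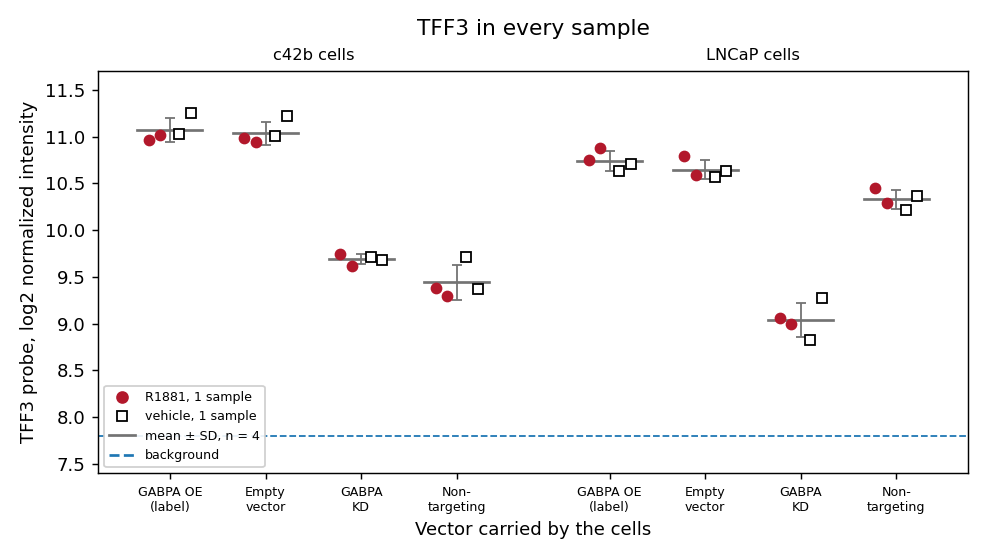
TFF3 in all 32 samples: each point is 1 sample in log2 normalized intensity (y axis) by line and vector (x axis), filled circles with R1881 and open squares with vehicle; grey bars are the mean ± SD of 4 samples and the dashed line is the background of 7.80 log2. The c42b KD and NT samples and the LNCaP KD samples all lie below the other samples, at 9.74 or less.

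In LNCaP cells the hairpin went with a low TFF3 level. The KD samples read 9.06 and 9.0 log2 with R1881 and 8.83 and 9.27 with vehicle, against 10.45 and 10.29 with R1881 and 10.21 and 10.36 with vehicle in the NT samples. Every KD sample was below every NT sample in both arms. The difference was -1.29 log2 (SE 0.096), or 2.44-fold lower in KD cells, and only 0.015% of the genes differed by more in this comparison, in which 2.46% of the genes were called. As this value was known when the gene was picked, it is a description and carries no test. The summed linear intensity of the luminal markers was 12674 to 22410 in KD cells and 13547 to 22191 in NT cells. These ranges pool the samples of both arms, so that their overlap does not show like levels. By arm the TFF3 difference was -1.34 log2 with R1881 and -1.24 log2 with vehicle.

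In c42b cells the same hairpin did not go with a low TFF3 level relative to NT cells. The KD samples read 9.74 and 9.62 with R1881 and 9.71 and 9.69 with vehicle, against 9.38 and 9.30 with R1881 and 9.71 and 9.37 with vehicle in the NT samples. The groups overlapped through 1 NT sample, at 9.71. The difference was 0.25 log2 (SE 0.096, 95% interval 0.051 to 0.44) and missed the threshold (limma, adjusted p = 0.365), where 3.25% of the genes were called. The difference between the lines in the KD difference, c42b minus LNCaP, was 1.54 log2 (SE 0.14). It holds the LNCaP value and is a description too. In this difference between the lines 1.47% of the genes were called.

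The 2 kinds of control cells differed in TFF3, and more so in c42b. The EV samples of c42b read 10.98 and 10.94 with R1881 and 11.01 and 11.22 with vehicle, against 9.30 to 9.71 in the 4 NT samples given above. All 4 EV samples were above all 4 NT samples. TFF3 was higher in the EV cells by 1.60 log2 (SE 0.096, limma adjusted p = 7.1e-14), or 3.02-fold. In this comparison 18% of the genes were called, and 0.544% of the genes differed by more. In LNCaP the EV samples read 10.79 and 10.59 with R1881 and 10.57 and 10.63 with vehicle, against 10.21 to 10.45 in the NT samples. These groups did not overlap either, and the difference was 0.32 log2 (SE 0.096, limma adjusted p = 0.0293), where 11.9% of the genes were called. The LNCaP call was lost in 5 of the fits that left out 1 sample. The vector difference was larger in c42b by 1.28 log2 (SE 0.14, limma adjusted p = 5.8e-07), where 4.89% of the genes were called. These comparisons share the NT samples with the KD comparisons. The summed linear intensity of the 8 luminal markers moved the same way in c42b, at 16176 to 22763 in EV cells and 11265 to 14820 in NT cells. It overlapped in LNCaP, at 14895 to 27835 in EV cells and 13547 to 22191 in NT cells, in ranges that pool both arms. Its part in the TFF3 difference was not tested.

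The choice of the control therefore set the sign of the KD difference in c42b. Against EV cells, an alternative added after seeing the data, TFF3 in KD cells differed by -1.35 log2 in c42b (SE 0.096). In LNCaP the difference was -1.61 log2 (SE 0.096). Both values are descriptions and carry no test. By arm, the differences from EV cells were -1.28 with R1881 and -1.42 with vehicle in c42b, and -1.66 with R1881 and -1.55 with vehicle in LNCaP. KD and EV cells differ both in the vector and in the hairpin, and the 2 cannot be told apart in this comparison.

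The label OE did not go with a different TFF3 level. In c42b the OE samples read 10.97 and 11.01 with R1881 and 11.03 and 11.26 with vehicle, and overlapped with the EV samples. The difference was 0.029 log2 (SE 0.096, 95% interval -0.17 to 0.22, limma adjusted p = 0.976), in a comparison in which 0.15% of the genes were called. In LNCaP the OE samples read 10.75 and 10.88 with R1881 and 10.63 and 10.71 with vehicle. They also overlapped with the EV samples, and the difference was 0.098 log2 (SE 0.096, 95% interval -0.097 to 0.29, limma adjusted p = 0.867), where 0.0449% of the genes were called.

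Androgen went with small differences in TFF3. Over the EV and NT cells of c42b, R1881 minus vehicle was -0.18 log2 (SE 0.096, 95% interval -0.37 to 0.019, limma adjusted p = 0.638), in a comparison in which 1.55% of the genes were called. In LNCaP it was 0.086 log2 (SE 0.096, 95% interval -0.11 to 0.28, limma adjusted p = 0.892), where 2.97% of the genes were called. R1881 minus vehicle was below 0 in all 4 kinds of c42b cells, between -0.20 and -0.017 log2. The samples of the 2 arms did not overlap in the OE and EV cells and overlapped in the KD and NT cells. With 2 samples per arm, no response is read from this. Of the 7 interactions that involve R1881, limma called 0, and 0 had an unadjusted p under 0.05.

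Whether c42b had more or less TFF3 than LNCaP depended on the control used. Over the EV and NT cells together, c42b read 10.24 ± 0.87 and LNCaP 10.49 ± 0.19 (SD, n = 8 each), with a difference of -0.25 log2 (SE 0.068, limma adjusted p = 0.00682), where 28.6% of the genes were called. The c42b samples spanned 9.30 to 11.22 log2, on both sides of the LNCaP samples at 10.21 to 10.79. In NT cells alone the difference was -0.89 log2 (SE 0.096, limma adjusted p = 1.4e-08). In EV cells alone it was 0.39 log2 (SE 0.096, limma adjusted p = 0.00317), with the opposite sign.

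AGR2, the disulfide isomerase, was near background in most cells. Its brighter probe had a mean of 7.65 log2, and 9 of 32 samples were above background. These were the 4 NT samples, 2 of 4 KD samples and 1 of 4 OE samples of c42b, and 2 of 4 KD samples of LNCaP. The c42b NT groups stood alone at the top, at 8.47 log2 with R1881 and 8.48 with vehicle. They were 0.59 log2 above the next group, and all further neighbours in the order of the 16 groups differed by less than the pooled SD within groups of 0.12 log2.

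**Figure D2:**
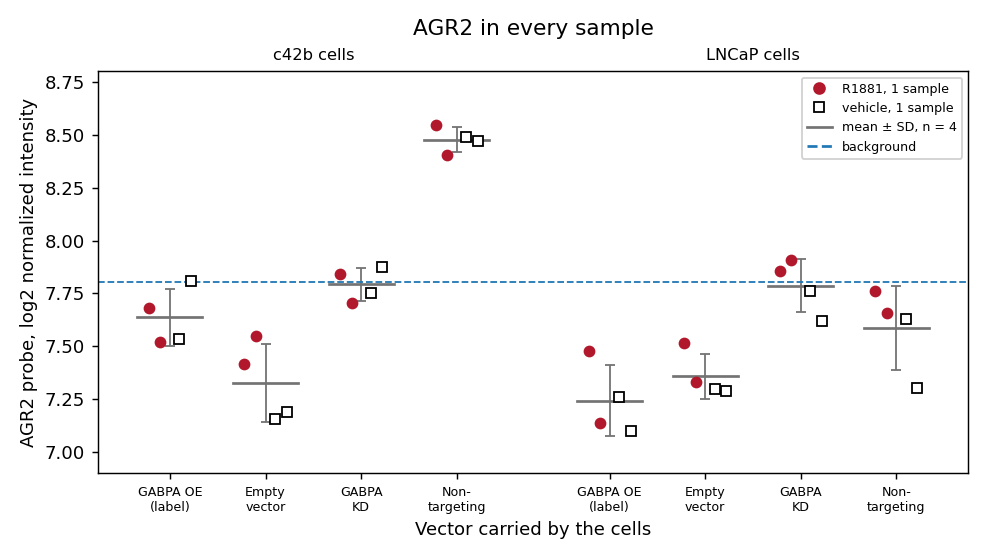
AGR2 in all 32 samples, from its brighter probe: each point is 1 sample in log2 normalized intensity (y axis) by line and vector (x axis), filled circles with R1881 and open squares with vehicle; grey bars are the mean ± SD of 4 samples and the dashed line is the background of 7.80 log2. The c42b NT samples, at 8.40 to 8.54, lie above all other samples, which reach at most 7.91.

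In c42b cells the hairpin went with less AGR2 than in NT cells. The KD samples read 7.84 and 7.71 with R1881 and 7.75 and 7.87 with vehicle, against 8.54 and 8.40 with R1881 and 8.49 and 8.47 with vehicle in the NT samples. The groups did not overlap in either arm. The difference was -0.68 log2 (SE 0.093). As 2 of 4 KD samples were below background, no fold is given. AGR2 is among the genes that the study names for changed expression in these cells, so that its KD and OE differences are descriptions and carry no test. In LNCaP the KD samples read 7.86 and 7.91 with R1881 and 7.76 and 7.62 with vehicle, against 7.76 and 7.66 with R1881 and 7.63 and 7.30 with vehicle in the NT samples. These groups overlapped, with a difference of 0.20 log2 (SE 0.093). The repeat arrays of 1 LNCaP KD sample with R1881, which were averaged to 7.86, read 7.59 and 8.12, on both sides of the background. The KD differences of the 2 lines, c42b minus LNCaP, differed by -0.88 log2 (SE 0.13).

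The c42b EV cells had no AGR2 signal above background. The EV samples of c42b read 7.41 and 7.55 with R1881 and 7.16 and 7.19 with vehicle, below all 4 NT samples. The difference, EV minus NT, was -1.15 log2 (SE 0.093, limma adjusted p = 6.6e-11). Because the EV samples were all below background, the level there has only a bound, and setting it at the background gives a level at least 1.59-fold lower than in NT cells. In LNCaP the EV samples read 7.52 and 7.33 with R1881 and 7.30 and 7.29 with vehicle, and overlapped with the NT samples. The difference of -0.23 log2 (SE 0.093) missed the threshold (limma, adjusted p = 0.138), although without the NT vehicle sample of replicate 2 it passed (adjusted p = 0.0451). The vector difference of c42b minus that of LNCaP was -0.92 log2 (SE 0.13, limma adjusted p = 9.5e-05), with all samples but those of c42b NT cells below background. TFF3 and AGR2 thus moved in opposite directions between the 2 control vectors of c42b, with TFF3 higher and AGR2 lower in the EV cells.

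With EV cells as the control, again an alternative added after seeing the data, the AGR2 difference of the c42b KD cells was 0.47 log2 (SE 0.093) and that of the LNCaP KD cells 0.43 log2 (SE 0.093). All EV samples and 2 of 4 KD samples of each line were below background, so that no order of the levels is read from these values. In the OE cells of c42b AGR2 read 7.68 and 7.52 with R1881 and 7.54 and 7.81 with vehicle, and the difference from EV cells was 0.31 log2 (SE 0.093). The samples with R1881 overlapped between OE and EV cells, with a difference of 0.12 log2, and those with vehicle did not, with a difference of 0.50 log2. In LNCaP the OE samples read 7.48 and 7.14 with R1881 and 7.26 and 7.10 with vehicle, all below background, and the difference from EV cells was -0.11 log2 (SE 0.093).

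AGR2 was not called for androgen in either line. R1881 minus vehicle was 0.15 log2 in c42b (SE 0.093, 95% interval -0.039 to 0.34, limma adjusted p = 0.714) and 0.19 log2 in LNCaP (SE 0.093, 95% interval -0.00389 to 0.375, limma adjusted p = 0.582). In LNCaP the difference was above 0 in all 4 kinds of cells, between 0.13 and 0.24 log2. Only 2 of the 16 LNCaP samples were above background, so that no response is read from these values. Of the 7 interactions that involve R1881, limma called 0 and 1 had an unadjusted p under 0.05. Between the lines, c42b controls read 7.90 ± 0.63 and LNCaP controls 7.47 ± 0.19 (SD, n = 8 each), a difference of 0.43 log2 (SE 0.066, limma adjusted p = 4.9e-06). The LNCaP controls were all below background, which leaves a level at least 1.07-fold higher in c42b. In NT cells alone the measured difference was 0.89 log2 (SE 0.093, limma adjusted p = 7.4e-09), with the LNCaP samples below background. In EV cells alone all 8 samples were below background, and the value of -0.031 log2 (SE 0.093, limma adjusted p = 0.897) does not show that the lines were alike.

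The second AGR2 probe did not show these differences. It had a mean of 6.89 log2 and was above background in 0 of 32 samples. Its difference was -0.13 log2 (SE 0.095) for KD minus NT and -0.18 log2 (SE 0.095, limma adjusted p = 0.292) for EV minus NT in c42b. A probe below background gives no level, so that all AGR2 values rest on 1 probe.

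TFF1, the trefoil factor of the stomach surface and a classical oestrogen-responsive gene, had no level above background in these cells. Its single probe read between 6.58 and 7.55 log2, and 0 of 32 samples were above background. In c42b the KD samples ranged from 6.96 to 7.55 and the NT samples from 6.86 to 7.19. In LNCaP the KD samples ranged from 6.75 to 7.25 and the NT samples from 6.92 to 7.20. Over its 9 comparisons and 10 interactions limma called 0, and 0 had an unadjusted p under 0.05. At this signal a difference in TFF1 was not detectable, which does not show that there was none.

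TFF2, the third trefoil factor, lies with TFF1 and TFF3 on chromosome 21 and was detected in c42b cells alone. In c42b its 4 kinds of cells averaged 9.21 ± 0.19 (OE), 9.44 ± 0.15 (EV), 10.17 ± 0.15 (KD) and 9.65 ± 0.074 log2 (NT, SD, n = 4 each). In LNCaP all 16 samples were below background. The difference between c42b and LNCaP controls was 2.14 log2 (SE 0.075, limma adjusted p = 1.8e-20), and against the background the level was at least 3.34-fold higher in c42b. TFF2 in c42b KD cells read 10.02 and 10.10 with R1881 and 10.19 and 10.37 with vehicle, against 9.67 and 9.54 with R1881 and 9.67 and 9.71 with vehicle in NT cells. The groups did not overlap, and TFF2 rose by 0.53 log2 (SE 0.11, limma adjusted p = 0.0046). The call was lost in each arm alone, with differences of 0.45 log2 with R1881 (adjusted p = 0.272) and 0.60 log2 with vehicle (adjusted p = 0.0558). AGR3, the close relative of AGR2 on chromosome 7, had 1 of 32 samples above background and was called in 0 of 9 comparisons (limma; 1 had an unadjusted p under 0.05).

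**Figure D3:**
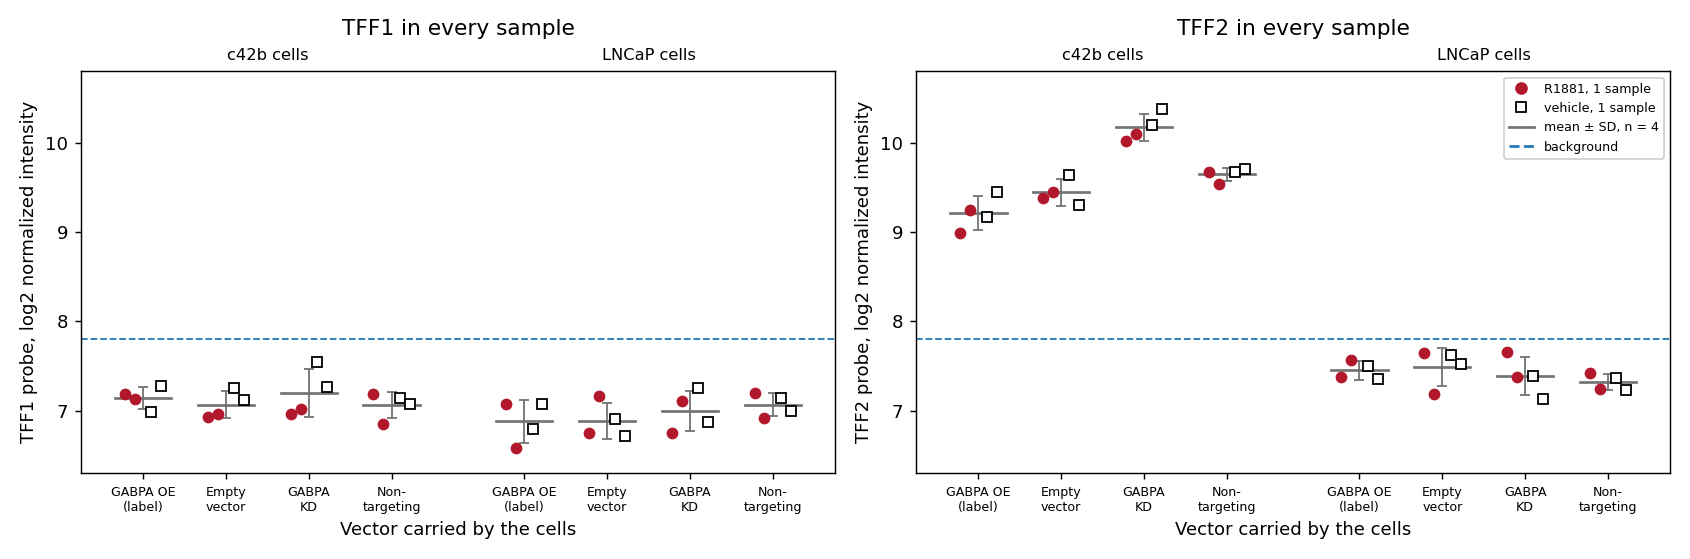
TFF1 (left) and TFF2 (right) in all 32 samples on the same y axis of log2 normalized intensity, by line and vector (x axis), with filled circles for R1881, open squares for vehicle, grey bars for the mean ± SD of 4 samples and a dashed line at the background of 7.80 log2. All TFF1 samples lie below the line, and the TFF2 samples lie above it in c42b, at 8.99 to 10.37, and below it in LNCaP.

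**Figure D4:**
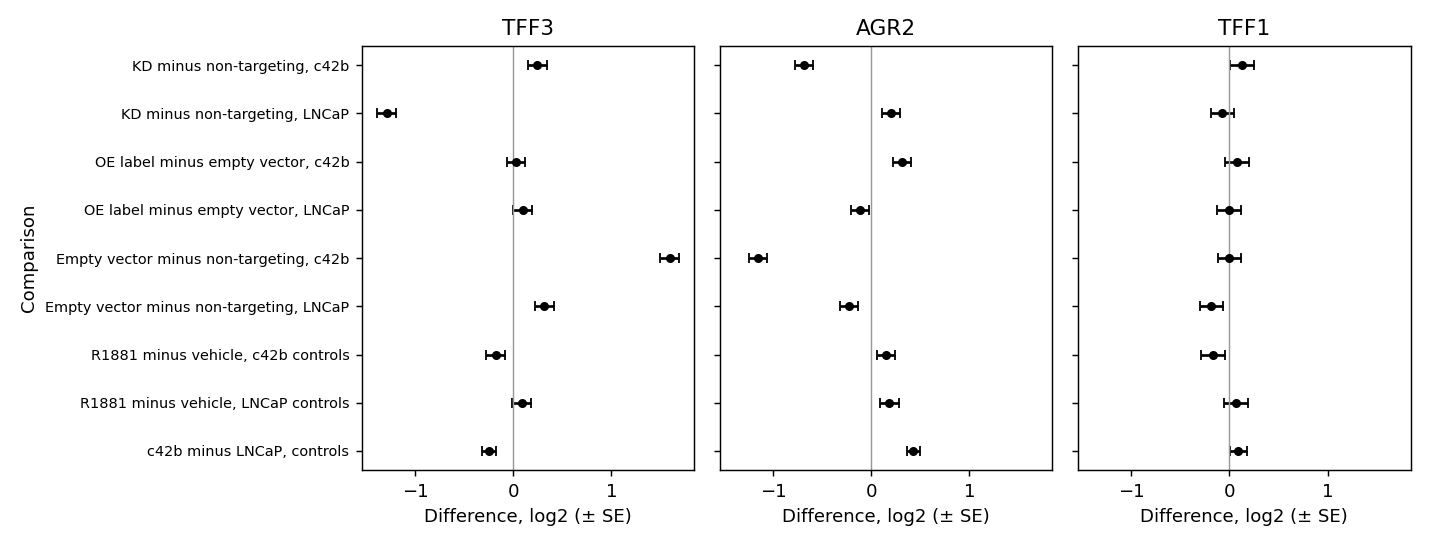
Differences in log2 (x axis) of TFF3, AGR2 and TFF1 in the 9 comparisons (y axis), the first-named group minus the second; points are the estimates of the fit and bars are ± 1 SE. The largest values are those of TFF3 for EV minus NT in c42b (1.60) and KD minus NT in LNCaP (-1.29), and that of AGR2 for EV minus NT in c42b (-1.15).

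A list of the AGR and protein disulfide isomerase family and related genes held 27 measured genes. Many of them form or rearrange disulfide bonds in the endoplasmic reticulum. The share called was near that of all genes for EV minus NT in c42b. There 3 were higher and 3 lower, AGR2 among the lower, beside 18% of all genes called, with a median difference of 0.12 log2 against 0.012 over all genes. DNAJC10, a reductase that acts in degradation of misfolded proteins, was higher by 0.86 log2 and ERP29, a chaperone of secretory proteins, by 0.67 log2 (limma, adjusted p = 5.5e-08 and 3.1e-07). The remaining higher gene, P4HB, differed by 0.32 log2 (adjusted p = 0.0194), a call lost in 4 of the fits that left out 1 sample. TMX1, a membrane-bound family member, fell by 0.26 log2 (adjusted p = 0.0371), and QSOX1, which introduces disulfide bonds, fell by 0.36 log2 (adjusted p = 0.011). With 1 sample left out at a time, the call of TMX1 was lost in 7 fits (adjusted p up to 0.192) and that of QSOX1 in 4 (up to 0.0705). For KD minus NT, PDIA6 rose in c42b by 0.36 log2 (adjusted p = 0.00869) and ERO1A, which reoxidizes disulfide isomerases, rose in LNCaP by 0.39 log2 (adjusted p = 0.0214), where 3.25% of all genes in c42b and 2.46% in LNCaP were called. PDIA5 was the 1 family member called for androgen, and rose with R1881 by 0.33 log2 in c42b and by 0.60 log2 in LNCaP (adjusted p = 0.037 and 1.7e-05). When arrays were instead scaled to a common median (median centring), the calls of PDIA6 (adjusted p = 0.0968), ERO1A (0.0703) and PDIA5 in c42b (0.0564) were lost, and against EV cells ERO1A turned to -0.057 log2. They were also lost when 1 sample was left out, in 3 fits for PDIA6 (adjusted p up to 0.0765), 5 for ERO1A (up to 0.192) and 7 for PDIA5 in c42b (up to 0.214). Between the lines 9 were higher and 2 lower in c42b, beside 28.6% of all genes called, with PDIA5 higher by 1.15 log2, QSOX1 by 1.01 and PDIA4 by 0.81.

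Genes that regulate secretory cells were compared in the same way. Of 22 measured, 3 were called for EV minus NT in c42b, all higher, a smaller share than the 18% of all genes, and the median difference was 0.054 log2 against 0.012 over all genes. XBP1, a transcription factor of the unfolded protein response, was higher by 1.27 log2 (limma, adjusted p = 4.35e-13), EHF, an epithelial ETS factor, by 0.60 log2 (adjusted p = 9.3e-05) and FOXA1, a forkhead factor that opens chromatin for steroid receptors, by 0.34 log2 (adjusted p = 0.00153). In LNCaP, XBP1 was higher in EV than in NT cells by 0.31 log2 (adjusted p = 0.00956) and was lower in KD than in NT cells (difference -0.41 log2, adjusted p = 0.00413). SPDEF, an ETS factor of goblet and prostate luminal cells, rose with R1881 by 0.55 log2 in c42b and by 0.91 log2 in LNCaP (adjusted p = 0.00181 and 5.1e-07), although in the NT cells of c42b alone it differed by 0.22 log2 (adjusted p = 0.77). With R1881, GATA2 fell by 0.58 log2 in c42b and fell by 0.80 log2 in LNCaP, and ELF3 fell by 0.45 log2 in c42b and fell by 0.53 log2 in LNCaP. Median centring brought FOXA1 to 0.20 log2 (adjusted p = 0.255) and ended the LNCaP call of XBP1 for EV minus NT (adjusted p = 0.0941), which was also lost without LNCaP EV R1881 replicate 2 (adjusted p = 0.0611).

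The products that trefoil factors and AGR2 accompany were mostly dim. Only 4 of 13 measured mucins had means above background, and 5 of 21 genes of goblet cell products and mucin glycosylation. FCGBP, a mucus protein that binds TFF3, was higher in KD than in NT cells of c42b by 0.48 log2 (limma, adjusted p = 0.0011) and in EV than in NT cells by 0.29 log2 (adjusted p = 0.0235). The call for EV minus NT was lost in 4 of the fits that left out 1 sample (0.22 to 0.37 log2, adjusted p up to 0.174), and for KD against EV cells FCGBP differed by 0.19 log2 (adjusted p = 0.379). The summed linear intensity of the 5 goblet markers was 1047 to 1129 in KD cells, 958 to 1035 in EV cells and 835 to 968 in NT cells of c42b, and 879 to 962 in KD cells and 900 to 934 in NT cells of LNCaP. Only 2 of these 5 markers had means above background, at 7.84 and 7.88 log2, so that this sum is largely background signal. The part of the sum in the differences of TFF3 and AGR2 was not tested. GCNT1, an enzyme that branches mucin-type glycans, was lower in KD than in NT cells of LNCaP (difference -0.60 log2, adjusted p = 5.4e-05) and rose there with R1881 by 0.53 log2 (adjusted p = 0.00034), a call lost in NT cells alone (adjusted p = 0.181). In c42b GCNT1 was the 1 gene of this list called for OE minus EV, beside 0.15% of all genes. It was higher there by 0.36 log2 (limma, adjusted p = 0.0346), and it was lower in EV than in NT cells (difference -0.28 log2, adjusted p = 0.035). These calls were lost in 8 and 6 of the fits that left out 1 sample. ACKR3, a chemokine receptor reported as a partner of TFF3, fell with R1881 by 1.19 log2 in c42b and fell by 0.95 log2 in LNCaP (adjusted p = 1.3e-10 and 1.6e-08). It was higher in EV than in NT cells of c42b by 1.05 log2 (adjusted p = 2.1e-10), whereas in LNCaP it was lower in EV cells (difference -0.37 log2, adjusted p = 0.00416). For KD minus NT, ACKR3 was higher in c42b by 0.45 log2 (limma, adjusted p = 0.00443) and lower in LNCaP (difference -0.60 log2, adjusted p = 8.7e-05). Against EV cells the c42b difference had the opposite sign.

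Oestrogen-responsive genes, a group to which TFF1, TFF3 and AGR2 themselves belong, had 6 higher and 3 lower of 23 measured in EV against NT cells of c42b, TFF3 and AGR2 among them, beside 18% of all genes called and with a median difference of 0.027 log2 against 0.012 over all genes. STC2, a secreted glycoprotein, was higher by 1.98 log2 (limma, adjusted p = 1.3e-17) and SERPINA3, a secreted protease inhibitor, by 1.23 log2 (adjusted p = 1.2e-12). CA12, a carbonic anhydrase, and MYB were lower (differences -0.57 and -0.40 log2, adjusted p = 0.000181 and 0.0122), and the call of MYB was lost in 4 of the fits that left out 1 sample (adjusted p up to 0.0819). For KD minus NT in LNCaP 1 was higher and 3 lower, the lower ones being TFF3, STC2 (-0.61 log2) and XBP1, and the higher one CA12 (0.57 log2), beside 2.46% of all genes called. TFF3 was known to be among them when the genes were picked. GREB1, an early oestrogen target, read higher with R1881, with differences of 0.85 log2 in c42b and 0.82 log2 in LNCaP. Its mean over all samples was 7.82 log2, beside a background of 7.80 log2, so that these values give no size of the rise.

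Genes next to the members on their chromosomes were read as well, 6 for the trefoil genes and 6 for AGR2. Beside AGR2, BZW2 fell by 1.06 log2 in EV against NT cells of c42b (limma, adjusted p = 5.6e-11), while ANKMY2 was higher by 0.81 log2 (adjusted p = 4.4e-08). BZW2 also fell by 0.34 log2 in KD against NT cells of c42b (adjusted p = 0.0365), whereas against EV cells the difference was 0.72 log2. The call was lost without any 1 of the 8 samples (adjusted p up to 0.169), with normexp background correction (0.0654) and with median centring (0.0509). Beside the trefoil genes, RSPH1 was higher in EV than in NT cells of c42b by 0.65 log2 (adjusted p = 4.3e-06) and ABCG1, a sterol transporter, by 0.32 log2 (adjusted p = 0.0117). In LNCaP ABCG1 was higher in EV cells by 0.67 log2 (adjusted p = 1e-06). The c42b call of ABCG1 was lost with median centring (adjusted p = 0.0849) and in 3 of the fits that left out 1 sample (up to 0.0995).

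Over the 16 group means TFF3 and AGR2 had a Pearson r of -0.69, TFF3 and TFF2 of -0.029, and TFF3 and TFF1 of -0.090. TFF1 and TFF2 had an r of 0.58, AGR2 and TFF2 of 0.45, and TFF1 and AGR2 of 0.27. These are descriptions, since the 16 means share 2 lines and 4 vectors, and TFF1, most AGR2 and the LNCaP TFF2 values lie below background. The genes above background with a pattern most like TFF3 were ACAD11, an acyl-CoA dehydrogenase (r = 0.96), AGPAT2, an acyltransferase of phospholipid synthesis (0.95), and ZNF512 (0.94), and the most opposite was BRDT, a testis bromodomain protein (-0.97). BRDT passed the background only by its mean of 7.83 log2. Its group means ran from 6.89 to 9.44 log2, so that part of its pattern lies below background. ACAD11 averaged 8.55 log2 in LNCaP KD and 9.06 in LNCaP NT cells, and 9.39 in c42b EV and 8.71 in c42b NT cells. The pattern most like that of AGR2 was shown by HAUS1 (0.93), KHSRP (0.92) and DSCC1 (0.92), which act in spindle assembly, RNA processing and sister chromatid cohesion, and the most opposite by LAPTM4B, a lysosomal membrane protein (-0.95). DSCC1 averaged 9.03 log2 in c42b KD cells and 9.82 in c42b NT cells. For TFF1, whose values lie below background, the most alike were RPP25L, MIOS and DYRK2 (0.83 each) and the most opposite FAM135A (-0.82).

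**Figure D5:**
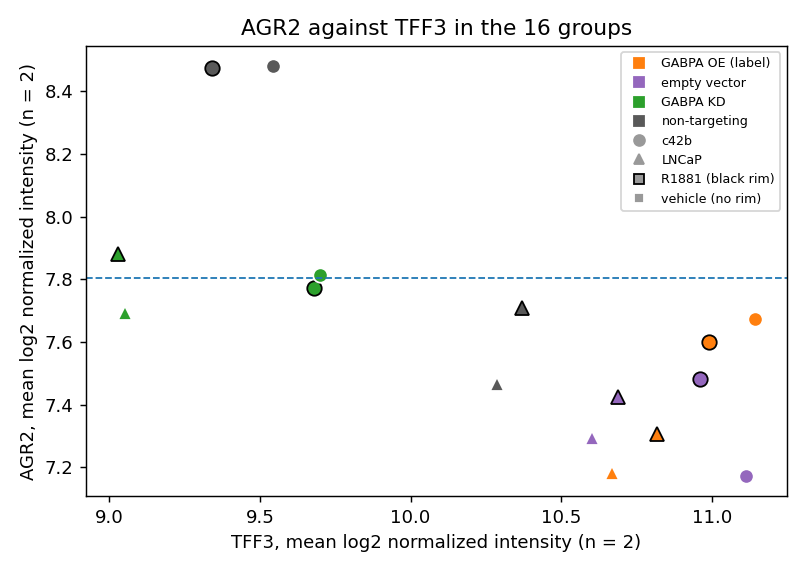
AGR2 (y axis) against TFF3 (x axis) in log2 normalized intensity for the 16 groups, each point the mean of 2 samples; colour gives the vector, circles are c42b and triangles LNCaP, a black rim marks R1881 and the dashed line is the AGR2 background of 7.80 log2. The groups with pLVX lie at the lower right and the c42b NT groups at the upper left, with r = -0.69 over the 16 means.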

How the data were processed

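Human HT-12 arrays (36, of which 4 were repeats) gave 32 samples. The authors deposited linear intensity values per probe after spatial correction with BASH and HULK of beadarray (versions not given in the sources used here), and a log2 table that they had quantile normalized. The deposited intensities were taken to log2, quantile normalized and averaged over repeat arrays, and differed from the deposited log2 table by a median of 0.000159. No detection p-values were used, so that background came from 457 olfactory receptor probes (their 95th percentile). Of 47231 probes, 30113 named 1 gene.

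A mean per group was fitted with limma 3.58.1 in R 4.3.3 and checked on simulated data. Benjamini-Hochberg adjustment ran over all probes, with 1 adjustment for the 6 comparisons of KD, OE and R1881, 1 for the 2 of EV with NT, 1 for the lines and 1 for the 10 interactions. Members and lists were chosen with earlier results of these data known. Named were the members, GABPA, TFF2, AGR3, mostly up to 4 called genes above background per list and comparison, and the 3 most alike and 1 most opposite genes per member. Alternatives were a replicate block, normexp correction, median centring, the authors' table, brighter probes, separate adjustment, no repeat arrays, single control vectors or arms, another probe, and leaving out each sample. Samples with the same replicate number correlated between -0.18 and 0.18 over 16 pairs of groups, so that the number was not used as a pairing. The number of arrays limits the precision (median SE 0.0969 log2).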

Additional observations from a re-analysis of the deposited data

Results flagged for a closer look

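Results that differed between the lines were looked at again. The KD difference of TFF3 differed between c42b and LNCaP by 1.54 log2 and that of AGR2 by -0.88 log2, both given as descriptions. The EV minus NT difference of TFF3 differed by 1.28 log2 and that of AGR2 by -0.92 log2, both called in limma. For AGR2, 8 of the 16 samples behind the KD value and 12 of the 16 behind the vector value were below background. All 4 share the NT samples of both lines, so that they are not separate observations. Over 24 sets of 4 samples (3 genes, 2 lines, 4 vectors), 0 held a sample far enough from the rest to pass Dixon's test at the 95% level.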

How the results depend on the processing

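Over 13 alternatives other than leaving out a sample, 256 of 298 values of the main results kept their direction and side of the threshold, or moved by less than the spread or by under 1.5 times. Median centring ended the TFF3 call for EV minus NT in LNCaP (0.32 log2, adjusted p = 0.0768) and turned TFF3 for OE minus EV in c42b to -0.0487 log2. Normexp moved the AGR2 difference between the lines in KD to -1.01 log2. EV cells alone turned the line difference of TFF3 to 0.39 and that of AGR2 to -0.0314 log2, and NT cells alone turned R1881 for AGR2 in c42b to -0.00617 log2 and the line differences of EHF and SERPINA3 to -0.0492 and -0.0576 log2. The EV reference for KD cells gave TFF3 -1.35 in c42b and -1.61 in LNCaP, AGR2 0.47 in c42b and 0.43 in LNCaP, and turned ERO1A in LNCaP (-0.0565), ACKR3 (-0.61) and BZW2 (0.72) in c42b. AGR2 for OE minus EV in c42b was 0.12 with R1881 and 0.50 with vehicle. The other AGR2 probe gave 0.0577 for OE minus EV in LNCaP, -0.0773 for it in c42b, -0.00409 for R1881 in LNCaP, -0.13 for KD in c42b, -0.18 for EV minus NT in c42b (adjusted p = 0.292), 0.18 for the lines (adjusted p = 0.0524), -0.26 for the KD and 0.00155 for the vector difference between lines. AGR2 and TFF1 have mean levels under the background, so brighter probes alone gave them no value. The causes of these changes were not tested.

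Counts of called genes were 494 for KD in LNCaP, 651 for KD in c42b, 9 for OE in LNCaP, 30 for OE in c42b, 596 for R1881 in LNCaP, 311 for R1881 in c42b, 294 for the KD and 980 for the vector difference between lines. With probes above background alone, fewer probes share the adjustment, and the counts were 897 for KD in LNCaP, 1161 for KD in c42b, 24 for OE in LNCaP, 80 for OE in c42b, 912 for R1881 in LNCaP, and 580 for the KD and 1471 for the vector difference between lines. Adjustment within each comparison gave 0 for OE in LNCaP (limma; 878 genes had an unadjusted p under 0.05), 5 for OE in c42b and 1692 for the vector difference. NT cells alone gave 256 for R1881 in LNCaP and 141 in c42b, with fewer samples. The R1881 arm alone gave 221 (KD, LNCaP), 256 (KD, c42b), 3 (OE, LNCaP) and 12 (OE, c42b), and the vehicle arm alone 209 (KD, LNCaP), 247 (KD, c42b), 5 (OE, LNCaP) and 18 (OE, c42b). The EV reference gave 2022 for KD in LNCaP and 2974 in c42b.

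With 1 sample left out at a time, TFF3 for EV minus NT in LNCaP ranged from 0.26 to 0.37 log2 (adjusted p 0.0167 to 0.147) and lost its call without EV R1881 replicate 1, either EV vehicle replicate, NT R1881 replicate 2 or NT vehicle replicate 1. TFF3 for OE minus EV in c42b ranged from -0.0286 (without c42b OE vehicle replicate 2; the sign also turned without EV vehicle replicate 1) to 0.0861, and AGR2 for EV minus NT in LNCaP from -0.31 to -0.15 (adjusted p 0.0451 to 0.49). Counts ranged from 195 to 297 for the KD difference between lines (195 without c42b NT vehicle replicate 2), from 2 to 15 for OE in LNCaP and from 12 to 33 for OE in c42b.

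Same-numbered replicates were not shown to be paired. With the replicate block, TFF3 for EV minus NT in c42b stayed at 1.60 log2 (adjusted p = 2.3e-13) and that in LNCaP at 0.32 log2 (adjusted p = 0.0332), and no call of TFF3, AGR2 or TFF1 changed. Of 16 pairs of groups 3 had a correlation over 0.1 and 1 under -0.1. Low probe signal limits TFF1 and most AGR2 samples, which lie within the background.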
